A study of Caenorhabditis elegans with 2 samples.

Results

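The genes described here are muscle thick filament and myosin genes of Caenorhabditis elegans. They are the myosin heavy chain genes unc-54 and myo-3, the paramyosin gene unc-15, and the giant kinase and titin-like genes unc-22, unc-89 and ttn-1. The others are the myosin chaperone gene unc-45 and the light chain genes mlc-1, mlc-2 and mlc-3. These 10 genes, of 19973 protein-coding genes, were chosen by name, as muscle genes, with earlier peak results of these data in view, so their peak counts are given as a description and no test was made on them. For each gene, every region with its summit between 2 kb upstream of the gene and its 3' end was taken, which is called the window below. In the windows lay 26 of the 5560 peaks that the authors kept for RNT-1, the RUNX transcription factor of this nematode. The data are chromatin immunoprecipitation and sequencing (ChIP-seq) of whole L1 hermaphrodites of strain OP462, genotype unc-119(tm4063) III; wgIs462, collected 6 h after synchronization by bleaching and starvation. The transgene wgIs462 makes RNT-1 with a GFP-FLAG tag at its C terminus, and an antibody to GFP was used. There was 1 group of 2 biological replicates, with no second condition, and the animals were whole, so a peak cannot be assigned to muscle cells or to any other cell type.

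The sarcomere of body wall muscle interleaves thin filaments of actin with thick filaments of myosin. UNC-54 is the major myosin heavy chain of body wall muscle, and MYO-3 is the second heavy chain, which occupies the middle of each thick filament. UNC-15 paramyosin forms the core of the filament. Twitchin (UNC-22), UNC-89, an obscurin homologue of the M-line, and TTN-1 are very large proteins of immunoglobulin and fibronectin domains. UNC-45 is a chaperone that folds the myosin head, and light chains bind the neck of the heavy chain. RUNX proteins bind a short DNA core, written ACCACA or ACCGCA and, on the opposite strand, TGTGGT or TGCGGT, and RNT-1 is known to promote division of seam cells in the epidermis.

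The sequence under the strongest peak of 7 genes is shown, with that under a further peak of unc-22. That further peak was the only one of the 26 with a RUNX core within 50 bp of its summit. The sequences at unc-54, unc-15 and unc-89, and at the remaining peaks, are not printed. The printed lines are therefore a selection and do not show how often a core occurred. Each line holds the bases from 60 before to 60 after the summit, 5′ to 3′ on the strand of the gene, read from the RefSeq genome of assembly WBcel235 (ce11). Capitals mark a RUNX core on either strand. The mlc-3 line stops at the gene start.
myo-3 V:12235657-12235777 (-): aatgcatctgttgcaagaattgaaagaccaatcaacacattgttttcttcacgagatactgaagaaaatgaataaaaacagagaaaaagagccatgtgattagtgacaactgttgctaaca
unc-22 IV:12010551-12010671 (-): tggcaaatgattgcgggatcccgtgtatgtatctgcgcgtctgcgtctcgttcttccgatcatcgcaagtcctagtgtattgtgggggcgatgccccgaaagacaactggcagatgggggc
unc-22 IV:12012530-12012650 (-): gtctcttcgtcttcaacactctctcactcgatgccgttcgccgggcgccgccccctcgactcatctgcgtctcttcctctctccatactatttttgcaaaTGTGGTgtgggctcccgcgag
ttn-1 V:6204207-6204327 (-): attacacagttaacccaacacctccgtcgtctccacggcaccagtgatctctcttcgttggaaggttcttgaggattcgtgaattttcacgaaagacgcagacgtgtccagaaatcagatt
unc-45 III:491241-491361 (+): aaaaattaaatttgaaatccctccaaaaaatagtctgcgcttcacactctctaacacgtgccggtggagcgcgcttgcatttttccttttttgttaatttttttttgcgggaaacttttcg
mlc-1 X:17459029-17459149 (+): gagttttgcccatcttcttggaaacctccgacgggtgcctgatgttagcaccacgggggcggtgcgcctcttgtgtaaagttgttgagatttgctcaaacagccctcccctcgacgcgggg
mlc-2 X:17456816-17456936 (-): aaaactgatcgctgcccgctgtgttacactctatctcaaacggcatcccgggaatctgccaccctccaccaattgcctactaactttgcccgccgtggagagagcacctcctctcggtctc
mlc-3 III:5564938-5565024 (+): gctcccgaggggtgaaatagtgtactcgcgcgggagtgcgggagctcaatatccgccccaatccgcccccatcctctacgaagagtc

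Of the 26 summits, 1 had a RUNX core within 50 bp, the TGTGGT in the upstream unc-22 region printed above, 42.5 bp from the summit to the middle of the core. Over all 5560 peaks the share with either core in such a 101-bp stretch, on both strands, was 10.1%, against 3.85% of the 26. Among the 24440 candidate regions that missed the authors' threshold it was 7.06%. A core was thus uncommon at peaks in general, and the 3.85% rests on 1 peak, too few to set these genes apart. Within 100 bp there were 2 of 26 (7.69%, against 16.4% of all peaks), the second being at unc-89. E-boxes of the forms CAGCTG and CACCTG, which basic helix-loop-helix factors such as the muscle regulator HLH-1 are known to bind, occurred within 50 bp of 1 summit, in unc-89, or 3.85%, against 10.5% of all peaks. The E-box search was chosen after the peaks had been seen. Each of the 26 stretches of 101 bp occurred once in the genome. Their median GC content was 49.5%, and that of all peaks 46.5%.

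Each of the 10 genes had at least 1 peak in its window, 7 had 2 or more and 5 had 3 or more. Over all protein-coding genes 24.4% had a peak in a window made in the same way, 5.42% had 2 or more and 1.57% had 3 or more. All 10 had a peak in the 2 kb upstream of the gene, where 20.2% of all genes had one, and 6 had a peak inside the gene, where 6.48% of all genes had one. The share of genes with a peak rose with window length, and the windows here ran from 2.79 kb at mlc-2 to 83.7 kb at ttn-1. Among all genes the share with a peak was 19.6% for windows under 5 kb, where mlc-1, mlc-2 and mlc-3 lie, and 31.8% from 5 to under 10 kb, where unc-54, myo-3 and unc-15 lie. It was 42.1% from 10 to under 30 kb, where unc-45 lies, and 59.5% of 74 genes at 30 kb and over, where unc-22, unc-89 and ttn-1 lie. In that longest class the mean was 1.57 peaks per gene, while unc-22 and unc-89 had 5 each and ttn-1 had 2. The 26 peaks amounted to 1.12 per 10 kb of window, and the whole genome held 0.554 per 10 kb. These 2 values are not like for like, since each window includes 2 kb upstream of a gene and the genome value covers all DNA. Pooled candidates of any signal were also denser in the windows, at 7.30 against 2.99 per 10 kb.

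**Figure D1:**
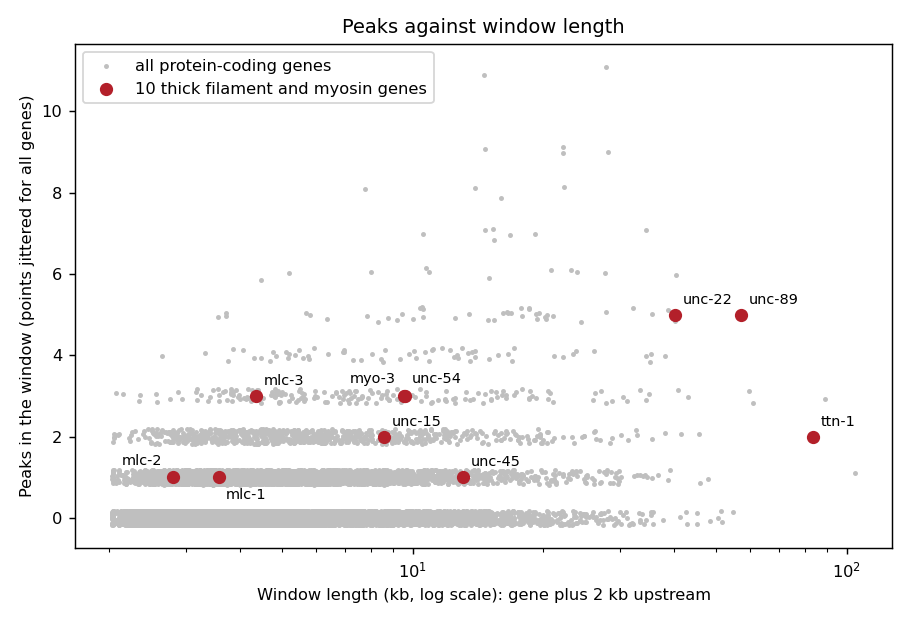
Number of peaks in the window (vertical axis) against window length in kb (horizontal axis, log scale) for all 19973 protein-coding genes (grey, jittered vertically) and the 10 thick filament and myosin genes (red). The short window of mlc-3 holds 3 peaks, while the 83.7 kb window of ttn-1 holds 2.

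The peaks were of middling strength. The signal is the value the authors' caller gave each region, on a scale that the sources used here do not name, and the number of reads behind it is unknown. The 26 pooled signals ran from 76.3 to 394 with a median of 200.1, and the median of all peaks was 174. With the whole list cut by rank into 5 equal groups from the strongest down, 2, 10, 10, 3 and 1 of the 26 fell in each. Ordered by the mean of the replicates at its strongest peak, the genes ran from unc-22 (197 ± 16.5, SD, n = 2) through unc-54 (184 ± 22.7), unc-15 (172.3 ± 0.8004), unc-89 (156 ± 12.0) and myo-3 (156 ± 19.3). Then came mlc-2 (138 ± 37.5), mlc-3 (119 ± 6.23), mlc-1 (99.8 ± 12.6), ttn-1 (93.8 ± 14.2) and unc-45 (58.2 ± 14.3). For 6 of the 9 pairs of neighbours in this order the replicate values overlapped. They did not overlap between unc-15 and unc-89, between mlc-3 and mlc-1, or between ttn-1 and unc-45. From the first to the last gene the means differed 3.38-fold.

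**Figure D2:**
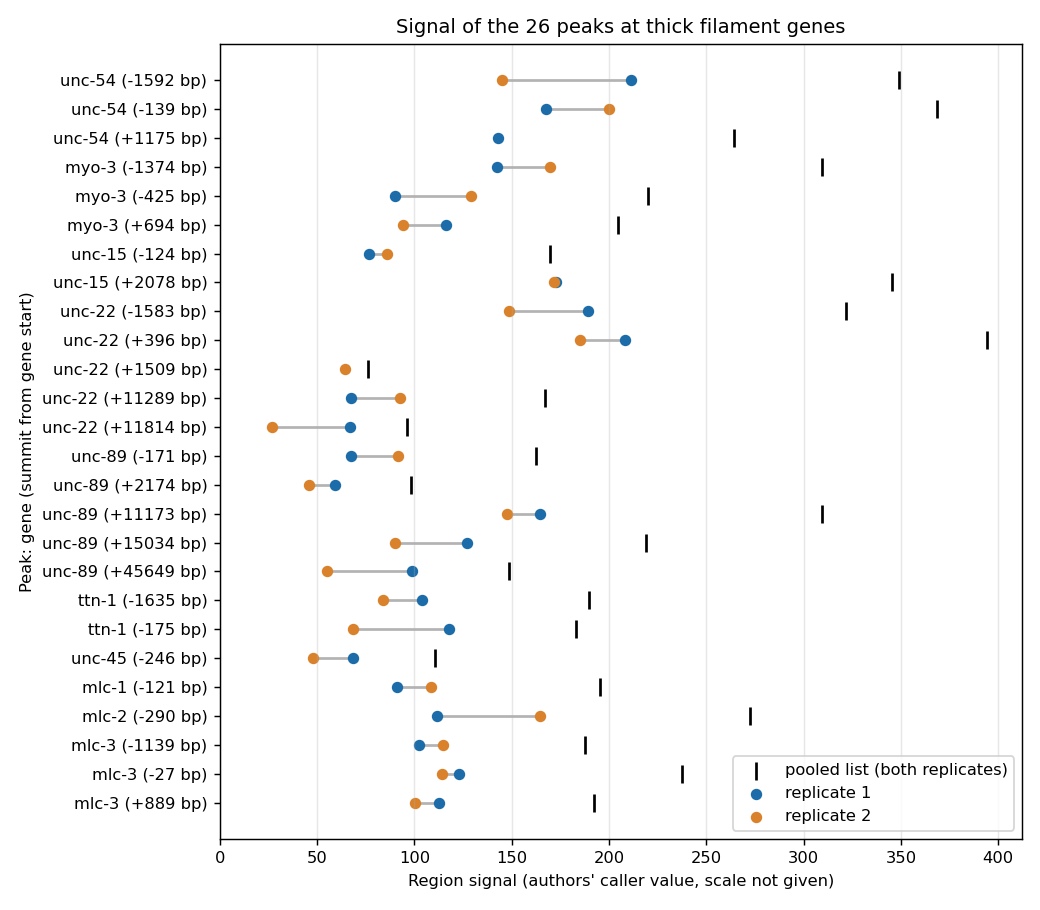
Signal of each of the 26 peaks (horizontal axis, the authors' value) in replicate 1 (blue), replicate 2 (orange) and the pooled list (black bars), by gene and by distance of the summit from the gene start in bp (negative is upstream). Pooled values lie between 76.3 and 394, and a missing circle means that no region of that replicate held the summit.

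The heavy chain genes had similar layouts, each with a near and a far upstream peak and a peak in an intron close to the start. At unc-54 (WBGene00006789, I:14855901-14863482, minus strand), the summit at I:14863567-14863718 lay 139 bp upstream of the gene start, with a signal of 168 in replicate 1 and 199.8 in replicate 2 (pooled 368). The far peak, 1592 bp upstream, gave 211 and 145 (pooled 349). The peak inside unc-54, at I:14862210-14862416, lay 1175 bp from the start in intron 3, which is 481 bp long. The third intron of unc-54 is known to hold an enhancer of its expression in muscle. This peak gave 143 in replicate 1 (pooled 264), and its summit fell outside every replicate 2 region, the nearest of which had its summit 23 bp away and a signal of 147. Replicate 1 was higher at the far peak and replicate 2 at the near one.

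At myo-3 (WBGene00003515, V:12226817-12234343, minus strand), the strongest peak was the far one, at V:12235627-12235826, 1374 bp upstream, with 142 and 169.7 in replicates 1 and 2 (pooled 309). The near peak, 425 bp upstream, gave 90.1 and 129 (pooled 220.0). The peak in intron 1, at 694 bp from the start, gave 116 and 94.0 (pooled 205). That summit also lies in K12F2.3, an annotated noncoding RNA gene on the opposite strand. The replicate ranges of the near peak and the intron peak overlapped, and both ranges lay below that of the far peak. No other protein-coding start lay within 5 kb of any of the 3 summits of myo-3, the closest being that of ttr-22 at 5709 bp. For unc-54 the closest was that of F11C3.1, 2850 bp from the far summit.

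Paramyosin differed from the heavy chains in that its intron peak was the stronger. At unc-15 (WBGene00006754, I:7376604-7383197, minus strand), the peak at I:7381019-7381254, in intron 5 and 2078 bp from the start, gave 173 and 172 (pooled 345). This was the smallest difference between replicates of any of the 24 peaks found in both. The upstream peak, 124 bp from the start, gave 76.5 and 86.1 (pooled 169.7). The intron peak was above the upstream peak in both replicates. It lay 1791 bp upstream of the start of the shorter annotated transcript of unc-15.

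Twitchin held the strongest of the 26 peaks. At unc-22 (WBGene00006759, IV:11972697-12011007, minus strand), the region IV:12010507-12010691 in intron 1, 396 bp inside the gene and 269 bp after a later annotated start, gave 208 and 185 (pooled 394, rank 972 of 5560). The summit also lies in the noncoding RNA gene ZK617.23 and 348 bp from ZK617.26, a short protein-coding annotation inside unc-22. The upstream peak, 1583 bp before the gene, gave 189.3 and 149 (pooled 322). It lay in the noncoding genes ZK617.8 and ZK617.18. The remaining 3 peaks of unc-22 were weaker and lay in introns. That at 11289 bp from the start, 48 bp upstream of an internal transcript start, gave 67.6 and 92.5 (pooled 167). That at 11814 bp gave 67.0 and 27.01 (pooled 95.97), the one member peak with more than a 2-fold difference between replicates. The last, at 1509 bp, was the weakest of all 26 (pooled 76.3), with 64.2 in replicate 2 and no region of replicate 1 at its summit.

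The M-line gene unc-89 (WBGene00006820, I:4035702-4090885, plus strand) had its strongest peak far inside the gene. At I:4046817-4046946, in intron 9 and 11173 bp from the gene start, the replicates gave 165 and 148 (pooled 309.7). This summit lay 261 bp upstream of an internal start shared by 5 annotated transcripts. The peak in intron 15 at 15034 bp gave 127 and 90.1 (pooled 219). The peak 171 bp upstream of the gene gave 67.2 and 91.7 (pooled 162), below the peak at 11173 bp in both replicates. In intron 35, at 45649 bp and 156 bp upstream of the start of a shorter transcript, the values were 98.6 and 55.0 (pooled 149). The peak in intron 3, at 2174 bp, was the weakest of unc-89, with 59.0 and 45.7 (pooled 98.2).

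The gene ttn-1 (WBGene00006436, V:6120909-6202632, minus strand), the longest of the 10, had both of its peaks upstream and none within its 81724 bp. The peak at V:6204159-6204374, 1635 bp upstream, gave 104 and 83.8 (pooled 189.8), and that at 175 bp gave 118 and 68.2 (pooled 183). The replicate values of these peaks overlapped. Both summits lay in annotated noncoding RNA genes, W06H8.10 and W06H8.11. The window held 46 candidate regions below the authors' threshold, with signals from 26.7 to 60.9. Between 14.7 and 33.6 kb from the start of ttn-1 there was no candidate at all in the pooled list, a stretch of 18.9 kb, 85.0% of which is annotated as exon. The longest such stretch was 18.2 kb in replicate 1 and 20.7 kb in replicate 2, at nearly the same place. Sequence uniqueness was checked at the peaks only, not along this stretch, so the gap cannot be read as a lack of binding. The internal start of ttn-1 used by 4 transcripts had no peak within 2 kb upstream.

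Internal starts, at which shorter forms of a gene begin, were set beside the intron peaks. The annotation of unc-15, unc-22, unc-89 and ttn-1 holds 8 transcript starts more than 500 bp inside the gene. Of these, 4 had a peak in the 2 kb upstream, and 3 had it within 300 bp, at the distances of 48, 261 and 156 bp given above. Of the 5136 such starts in all protein-coding genes, 20.5% had a peak in the 2 kb upstream and 5.2% within 300 bp. In genes with windows of 30 kb and over, where 7 of the 8 starts lie, 45 and 19 of 339 starts had one at these distances. With 8 starts, chosen with their genes, no test was made. The others were a start of unc-22 14632 bp inside, with the nearest upstream candidate at a signal of 40.2, a start of unc-22 7905 bp inside with none, a start of unc-89 44837 bp inside (candidate of 47.5), and that of ttn-1 (34.1). Those candidates were below the authors' threshold of 71.6.

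The light chain genes mlc-1, mlc-2 and mlc-3 each had a peak within 300 bp upstream of the start. The genes mlc-1 (WBGene00003369, X:17459210-17460778, plus strand) and mlc-2 (WBGene00003370, X:17455792-17456586, minus strand) lie head to head with 2623 bp between them. Their coding sequences, 510 bp each, were identical at 96.7% of positions. The peak of mlc-1, at X:17459050-17459109 and within 300 bp upstream of the gene (summit at base 17459089), gave 90.9 and 109 in replicates 1 and 2 (pooled 195). That of mlc-2, 290 bp upstream at X:17456818-17456959, gave 111 and 164 (pooled 272). The signal at mlc-2 was the higher in both replicates, although the lowest value of mlc-2 was close to the highest of mlc-1. Neither peak was in the window of the other gene.

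At mlc-3 (WBGene00003371, III:5565025-5567382, plus strand) there were 3 peaks in a window of 4.36 kb, or 6.88 per 10 kb, the highest density of the 10 genes. The peak 27 bp upstream of the gene, at III:5564890-5565105, gave 123 and 114 (pooled 237). That at 889 bp inside, in intron 2, gave 112 and 100.2 (pooled 192), and that at 1139 bp upstream gave 102 and 114.9 (pooled 188). The last lies inside rpc-2, the gene before mlc-3. The 3 peaks differed little. The replicate range of the peak at 1139 bp upstream overlapped that of the intron peak and, only just, that of the peak at 27 bp. The intron peak was below the peak at 27 bp in both replicates, and their ranges did not overlap.

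The chaperone gene unc-45 (WBGene00006781, III:491547-502625, plus strand) had the weakest best peak. It lay 246 bp upstream, at III:491193-491408, and gave 68.4 and 48.098 (pooled 111, rank 3999 of 5560). Both values were below those of the best peak of each of the other 9 genes in the same replicate. A stronger peak (pooled 304) lay 115 bp past the 3' end of unc-45 and so outside its window.

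**Figure D3:**
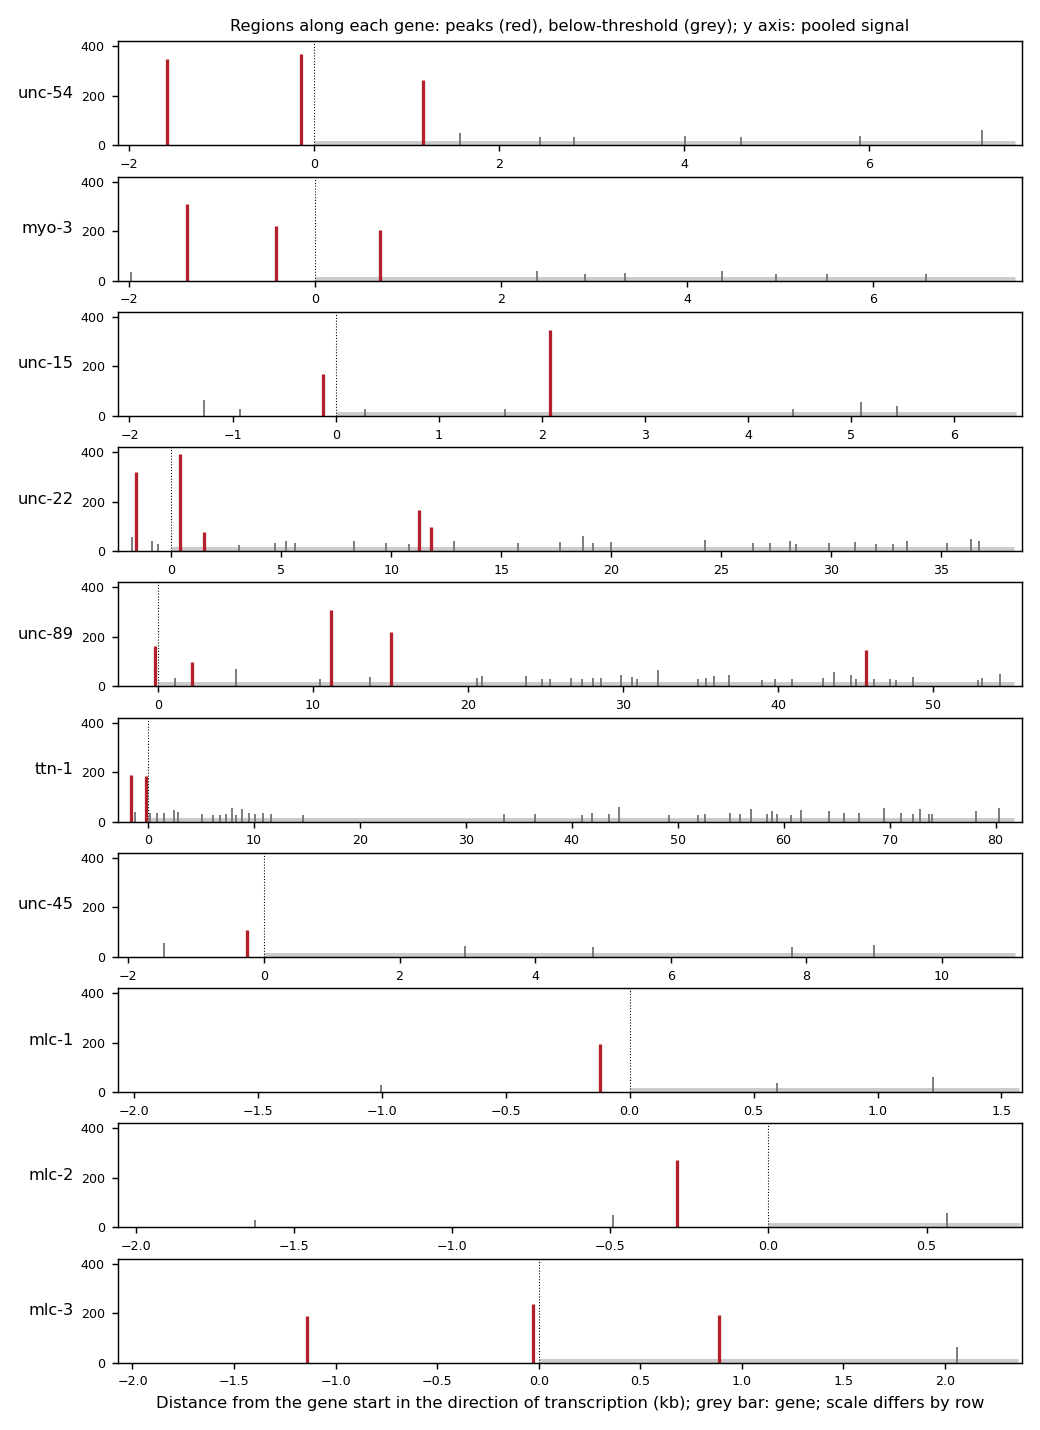
Pooled signal (vertical axis, the authors' value) of each region against the distance of its summit from the gene start in kb, in the direction of transcription (horizontal axis, with its own scale in each row), for the 10 genes. Peaks are red, candidate regions below the threshold are grey, and the grey bar is the gene; the red lines gather near the start, except in unc-22, unc-89 and unc-15, and the grey lines run along the whole of the long genes.

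By position, 14 of the 26 summits (53.8%) were upstream of the gene and 12 inside it. Of all 5560 peaks, 66.2% lay outside protein-coding genes, a class that is not the same as upstream of a gene. Within 300 bp upstream there were 8 peaks at 8 genes, and that of myo-3 at 425 bp made 9 within 500 bp. The exception was unc-22, whose only upstream peak lay at 1583 bp. The share of all genes with an upstream peak is given above for the 2 kb reach only (20.2%). The counts within 300 and 500 bp therefore do not set these genes apart. A further 5 peaks, at unc-54, myo-3, unc-22, ttn-1 and mlc-3, lay more than 1 kb upstream. The median pooled signal was 208 upstream and 198 inside, so that the places differed little against the range of 76.3 to 394.

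None of the 12 summits inside the genes lay in an exon, although exons of any annotated transcript make up 59.99% of the length of the 10 genes. All 12 were in introns, of unc-54, myo-3, unc-15, unc-22, unc-89 and mlc-3. Of all 1877 peaks inside protein-coding genes, 74.9% were in introns and 10.6% in coding sequence, with 213 in 5' and 60 in 3' untranslated regions. The candidate regions below the threshold had another placement: of the 133 inside the 10 genes, 103 were in exons (77.4%) and 30 in introns. Over all 17694 such regions inside genes, 61.2% were in coding sequence and 33.1% in introns, with 456 in 5' and 553 in 3' untranslated regions. The exon counts at the 10 genes include untranslated regions, so they are not matched to coding sequence alone. In unc-22 the exons held 19 of the 26 below-threshold regions inside the gene, in unc-89 27 of 35 and in ttn-1 33 of 45. Of the 26 peaks, 6 had the summit in an annotated noncoding RNA gene, at myo-3, unc-22 and ttn-1, or 23.1%, against 10.3% of all peaks. Of the 6, those in introns of myo-3 and unc-22 lay on DNA shared by the RNA gene and the muscle gene, and the others lay upstream of unc-22 and ttn-1, outside the muscle gene. The lists do not tell which gene a peak belongs to.

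**Figure D4:**
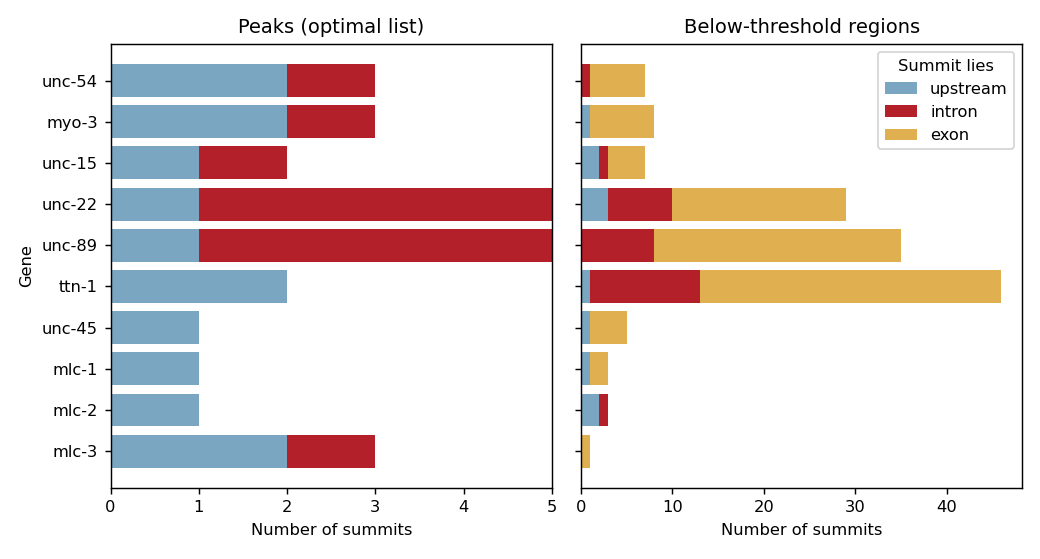
Number of summits (horizontal axis) upstream of the gene, in introns and in exons for each of the 10 genes, for peaks (left) and for candidate regions below the threshold (right). Of the peaks, 14 are upstream, 12 are in introns and none is in an exon, while 103 of the 144 below-threshold counts are in exons.

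The weakest peak, in unc-22 (76.3), was close to the authors' threshold, and the strongest below-threshold region of the 10 windows was in unc-89, with a signal of 71.4 in an intron 5045 bp from the start. The next in unc-89 was 67.9, and no other gene had a below-threshold region above 64.0. In all, the windows held 170 pooled candidates, with a region shared by the windows of mlc-1 and mlc-2 counted under both genes, with 163 regions in the list of replicate 1 and 146 in that of replicate 2. Just past the edge of the 2 kb reach there were peaks at 2168 bp upstream of unc-54 (pooled 104) and at 2152 bp upstream of unc-15 (226), and just past the 3' end of unc-54, at 202 bp, a peak of 118. Inside the reach, the outermost were those at 1635 bp upstream of ttn-1, 1592 bp of unc-54 and 1583 bp of unc-22.

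Of the 26 summits, 24 (92.3%) lay in a region of both replicates, against 95% of all peaks. When regions had to overlap by 50% of each other's length, 15 of the 26 were matched in both. For 25 the nearest summit of each replicate was within 60 bp. The exception was the weak unc-22 peak at 1509 bp. Replicate 1 was higher at 15 of the 24 and replicate 2 at 9, and the median ratio of replicate 2 to replicate 1 was 0.895, as over all 5282 matched peaks (0.895). The ratio ran from 0.403, at unc-22, to 1.48, at mlc-2. The median coefficient of variation was 16.1%, and 15.6% over all peaks.

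**Figure D5:**
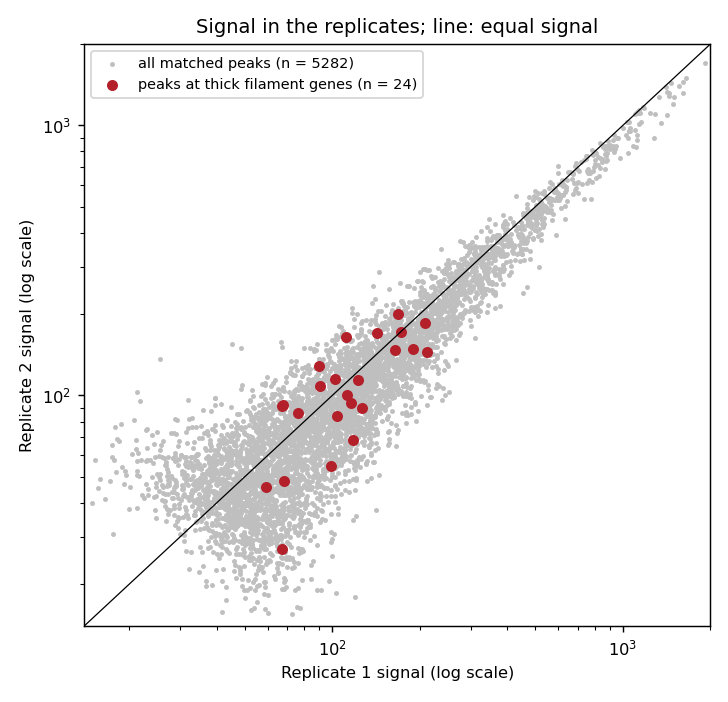
Signal in replicate 2 (vertical axis, log scale) against replicate 1 (horizontal axis, log scale) for the 5282 peaks matched in both replicates (grey) and the 24 at thick filament and myosin genes (red); the line marks equal signal. The red points lie within the grey cloud, and 1, a weak unc-22 peak, is more than 2-fold from the line.

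Other myosin and sarcomere genes were counted in the same windows, from lists also chosen with earlier results known. Of 4 further sarcomeric heavy chain genes, myo-6 had a peak (pooled 132, replicates 66.7 and 69.6), and myo-1, myo-2 and myo-5 had none. The genes myo-1 and myo-2 encode the heavy chains of the pharynx, a muscle without UNC-54. Of the other light chain genes, 1 of 4 had a peak, mlc-5 (78.01), and mlc-4, mlc-6 and mlc-7 had none. Both non-muscle heavy chain genes had a peak, nmy-2 (253) and nmy-1 (90.6). Of 8 unconventional myosin genes 3 had one, hum-2 (164), hum-7 (158) and hum-1 (79.8). These shares of 25, 25, 100 and 37.5% rest on 2 to 8 genes each and stand beside the 24.4% of all genes.

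Partners of the thick filament and thin filament genes were counted in the same way, beside the 24.4% of all genes. The median window was 13.7 kb for the M-line list, in the length class where 42.1% of all genes had a peak, 5.37 kb for the partners of UNC-45 (31.8%) and 3.80 kb for the thin filament list (19.6%). No test was made of these shares. Of 10 M-line genes 9 had one, led by unc-82, a kinase gene (378), scpl-1, a phosphatase gene (264), unc-98, a zinc finger gene (253), and mel-26 (238), and cpna-1 had none. Of 5 genes for partners of UNC-45, 4 had one: cdc-48.1 (2254), hsp-90 (2065), the ubiquitin ligase genes ufd-2 (446) and chn-1 (104), but not cdc-48.2. The strongest peaks of cdc-48.1, hsp-90 and ufd-2 were above every peak of the thick filament genes, whose highest was 394. So was that of cap-2 in the thin filament list. Thin filament genes had a peak in 14 of 19, led by cap-2, a capping protein gene (1514), unc-27, a troponin I gene (374), pat-10, a troponin C gene (369), and act-4, an actin gene (356), and not in tni-1, tni-3, tni-4, tnt-4 or tnc-2. The median of the strongest peak per gene was 291 for the 10 thick filament and myosin genes, 292 for the thin filament genes with a peak and 236 for the M-line genes with one. A window can hold the peak of a neighbouring gene, so these counts give position and do not assign a target.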

How the data were processed

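The members and the other gene lists were chosen with earlier results of these data known. On ce11 the authors deposited lists of regions, each with a signal and a −log10 q value, used as they stand: 30000 candidates for each replicate, 30000 for the pooled replicates and 5560 optimal peaks, selected by the irreproducible discovery rate (IDR) per the names of the deposited lists. The weakest optimal peak had a signal of 71.56 and the strongest candidate left out 71.54, so membership followed pooled signal. The sources used here name neither aligner nor caller. The ce10 lists and the control experiment that the labels name were not analysed here. Depth is unknown, so no interval was computed.

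Genes came from Ensembl release 115 (WBcel235, the ce11 sequence). Region ends and gene ends fitted the chromosome lengths, and all 51 start codons of the members read ATG. A summit is the deposited start plus offset, and coordinates are 1-based. A replicate region matched a peak when it held the summit. RUNX cores and E-boxes were counted within 50 bp on both strands. With 1 group, and members chosen on known results, no test was made; SD is over the 2 replicates. Window counting was checked on planted summits. The rule named all 10 members and up to 4 genes per list with the strongest peaks. Of 56 listed names, 52 were genes; daf-21 is an older name of hsp-90, and hum-3, hum-9 and tmd-1 were not found. Alternatives were other upstream reaches, region overlap, the upper 50% of peaks by signal, each replicate alone, the nearest start, other matching rules and motif windows. Python 3.11.15, numpy 2.4.6 and pandas 2.3.3 were used.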

Additional observations from a re-analysis of the deposited data

How the results depend on the processing

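No paired analysis was possible because there is 1 group. The number of members with a peak was 9 among the upper 50% of peaks by signal, where unc-45 was lost, and 9 without summits in noncoding RNA genes, an alternative added after seeing the data, where ttn-1 was lost. It was 10 under the other settings tried, each replicate alone included (10 and 10). The 24.4% of all genes with a peak holds for the full list with a 2 kb reach. Shares of all genes under the other settings are not given here. The 26 peaks became 27 or 28 from 1 replicate alone, 18 in the stronger list, 20 without summits in noncoding RNA genes, 21 with a reach of 500 bp or 1 kb and 32 with 5 kb. Upstream peaks went from 14 to 9 with a reach of 500 bp and to 9 with 1 kb, since fewer bases were searched. Peaks with a RUNX core went from 1 to 0 within 25 bp and to 2 within 100 bp. Genes of the other lists with a peak went from 34 to 19 of 52 in the stronger list. Peaks matched in both replicates went from 24 to 15 with 50% reciprocal overlap, the cause was not tested. The remaining alternatives, for the median signal and the replicate ratio among others, moved by less than the replicate spread or 1.5 times the count.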
